A study of Caenorhabditis elegans with 5 samples.

Results

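The oac genes of the nematode Caenorhabditis elegans (oac for O-acyltransferase homologue) were chosen by symbol, as every row of the count tables named oac- followed by a number. There were 56 such rows among 45251. Whole worms of the wild-type laboratory strain N2 were used, from the L4 larval stage to adulthood. The worms were kept at 20 °C on agar plates with the bacterium Escherichia coli OP50 and spent 24 h on plates with bisphenol TMC (BPTMC), a bisphenol, or with dimethyl sulfoxide (DMSO), treated here as the solvent group. The labels give a final concentration of 1 mM for both plates. There were 3 BPTMC and 2 DMSO libraries of 3' tags from total RNA. Since nothing in the labels says that the replicates were separate cultures, p-values reflect only how these samples differ, which may be technical. No measured value selected single members, but the family was selected with the BPTMC against DMSO values of these libraries already known. Its fold changes and p-values are a description of the rows and support nothing further.

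OAC proteins are multi-pass membrane proteins with the acyltransferase-3 domain, also found in bacterial enzymes that attach acyl groups to sugars on the cell surface. The substrates of most worm members are not known. The best studied relatives carry other names: RHY-1 restrains the hypoxia factor HIF-1, and NRF-6 and NDG-4 are needed for the response to the drug fluoxetine and for the transport of yolk.

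In these worms most of the family was close to silent, with 45 of the 56 genes at or under 0.831 CPM in every library. CPM stands for reads per 1000000 counts, scaled by the TMM method. Most of the difference between groups in summed level lay in a few genes. oac-14, oac-6 and oac-20 together made up 12.5% and 16.4% of the family's summed level in DMSO replicates 1 and 2. In BPTMC replicates 1, 2 and 3 they made up 87.8%, 53.7% and 82.3%, as shares of CPM not divided by length. These 3 genes were grouped by no rule fixed beforehand and are higher-level members that rose. A larger share in BPTMC therefore follows from how they were picked and is only a description. The summed level of all 56 rows was 34.7 and 38.2 CPM in the DMSO libraries. It was 351, 85.4 and 198 CPM in BPTMC replicates 1, 2 and 3, so the groups did not overlap but the BPTMC libraries differed widely among themselves. Without those 3 genes the sum was 31.1 ± 1.16 CPM (SD, n = 2) in DMSO and 39.1 ± 3.96 CPM (SD, n = 3) in BPTMC, and the groups again did not overlap, the lowest BPTMC library standing at 35.0 CPM. In whole worms, more RNA per cell and more cells that express a gene cannot be told apart.

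**Figure D1:**
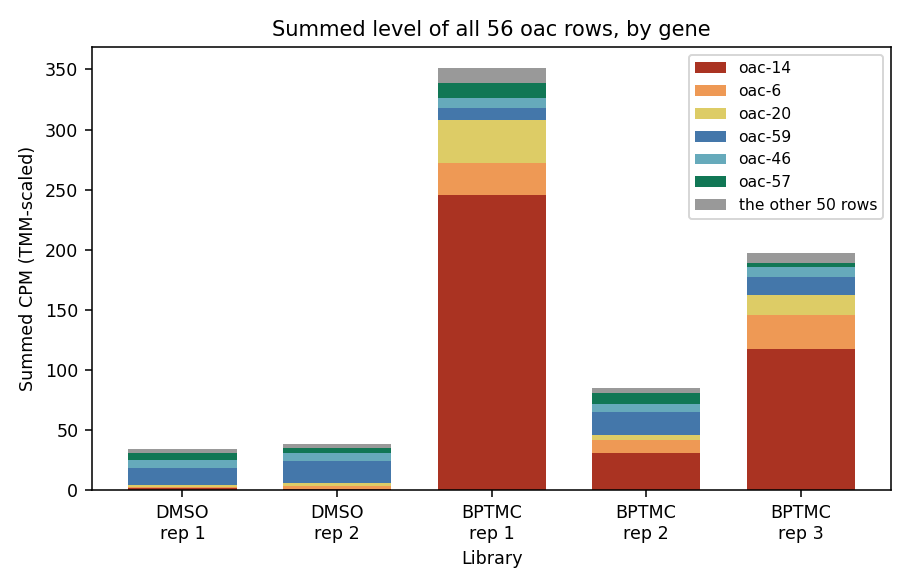
Summed CPM (vertical axis, TMM-scaled) of all 56 oac rows in each of the 5 libraries, each bar stacked by gene. The red oac-14 segment is at most 1.75 CPM in the DMSO libraries and 31.2 to 245 CPM in the BPTMC libraries, while the blue and green segments (oac-59, oac-46, oac-57) change far less.

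The libraries held 16531114 to 24362712 counts, of which 774 and 813 fell on oac genes in DMSO and 7176, 1673 and 3889 in BPTMC replicates 1 to 3. The first principal component of all tested genes held 54.9% of the variance, and BPTMC replicate 1 (108) and DMSO replicate 2 (-87.9) stood at its ends, with BPTMC replicate 2 (-27.4) between the DMSO libraries. Markers of intestine, body muscle, neurons, epidermis, germline, sperm and yolk had reads in every listed gene. Of the 4 pharynx markers, phat-1 had none. The major sperm protein genes, 31 of 31 with a read, summed to 98.1 and 42.3 CPM with DMSO and to 448, 55.5 and 293 CPM in BPTMC replicates 1, 2 and 3. None of the 29 tested passed edgeR, DESeq2 or limma-voom over all genes. By edgeR, 14 of the 29 were higher with an unadjusted p under 0.05 and 0 were lower, against 7% and 0.4% of all tested genes. The summed level of the 4 body muscle markers was 451 and 496 CPM with DMSO and 1070, 537 and 549 CPM in BPTMC replicates 1, 2 and 3, with no overlap. Among single tested genes, 13.4% had every BPTMC library above both DMSO libraries. The 5 intestine markers summed to 320 and 253 CPM against 372, 405 and 282 CPM, which overlapped, although all 5 had a log2 fold change above 0 (median 0.91) and 2 had an unadjusted p under 0.05. The 5 germline markers, all with a log2 fold change below 0 (median -0.43), summed to 561 and 811 CPM against 240, 586 and 604 CPM, lowest in BPTMC replicate 1. BPTMC replicate 1 also had the highest yolk marker sum, 26053 CPM where the other libraries had 13894 to 16364. Of the 6 yolk markers, 3 had a log2 fold change above 0 (median -0.21). By edgeR, 2 of the 6 were lower with an unadjusted p under 0.05 (0.4% of all tested genes) and 0 were higher (7%). None of the markers of these types passed edgeR, DESeq2 or limma-voom, and their part in the oac levels was not tested.

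Of the 56 oac genes, 11 had no read in any library, 45 had at least 1 and 14 had a read in all 5. The share with no read was 19.6% of the oac rows and 51.1% of all 45251 rows. After the filter on low counts 11 were tested, in 1 edgeR quasi-likelihood fit over 14238 genes. Of those 11, 7 reached the filter's cutoff of 0.501 CPM in both DMSO libraries. The other 4 (oac-31, oac-32, oac-58 and oac-5) reached it in no DMSO library and passed through the BPTMC libraries alone, so the tested set leans towards genes that are higher in BPTMC. edgeR called 0 of the 11 in either direction at an adjusted p under 0.05, where it called 0.105% of all tested genes higher and 0% lower. By edgeR's unadjusted p, 6 were under 0.05 and higher, and 0 under 0.05 and lower (7% and 0.4% of all tested genes). DESeq2 called 3 higher and 0 lower, against 1.67% and 0.0211% of all tested genes, and limma-voom called 0, against 0.00702%. The median log2 fold change of the 11 was 2.64, where that of all tested genes was -0.09, with 10 of the 11 above 0 (45.5% of all tested genes) and 6 above 2 (5.71%). Every BPTMC library stood above both DMSO libraries in 6 of the 11, and in 13.4% of all tested genes. The reverse held in 0 of the 11 and in 9.96% of all tested genes. Since 4 of the 11 needed the BPTMC libraries to be tested at all, these values describe the tested rows and not the family. The 7 genes at the cutoff in both DMSO libraries had a median log2 fold change of 0.72, where that of the 11944 genes at the same cutoff was -0.18. Of these 7, 6 were above 0 (37.9% of the 11944), and in 3 (10.6%), oac-14, oac-6 and oac-20, every BPTMC library stood above both DMSO libraries.

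**Figure D2:**
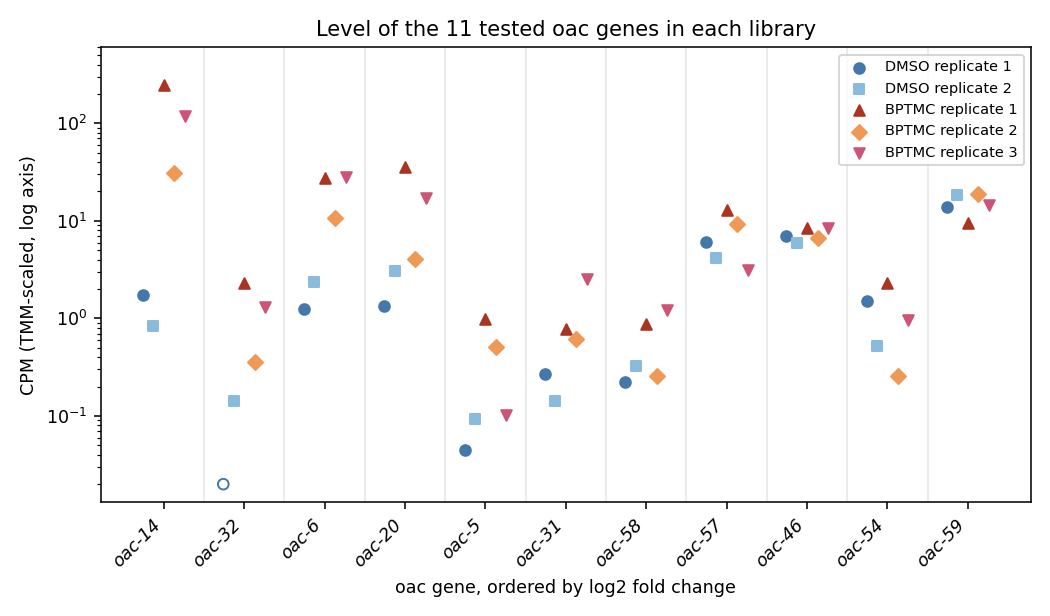
CPM (vertical log axis, TMM-scaled) of the 11 tested oac genes in each library, ordered from the highest log2 fold change at the left, with blue symbols for DMSO and red, orange and pink for BPTMC. An open symbol at the bottom marks a level of 0. The 6 genes at the left have all BPTMC symbols above both DMSO symbols, as do 13.4% of all tested genes. Their gap is 17.9-fold for oac-14 and 1.08-fold for oac-5. Of these 6, oac-32, oac-5 and oac-31 passed the filter through the BPTMC libraries alone. The 5 at the right overlap.

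oac-14 (WBGene00008602) is the one member on the X chromosome, from 10139372 to 10142013 on the minus strand of WBcel235, and overlaps no other annotated gene. The 2 DMSO libraries held 39 and 18 of its reads, and BPTMC replicates 1, 2 and 3 held 5017, 611 and 2309. In CPM these were 1.75 and 0.846 against 245, 31.2 and 117. All 3 BPTMC libraries stood far above both DMSO libraries, the lowest of them 17.9 times the higher DMSO library, while the BPTMC libraries spanned a 7.86-fold range. The log2 fold change was 6.65 ± 1.02 (SE), the 43rd highest of all tested genes, with an edgeR adjusted p = 0.0876. DESeq2 gave it an adjusted p = 9.53e-15. Without DMSO replicate 1 the edgeR adjusted p was 0.00973, and without BPTMC replicate 1 it was 0.0116 with a log2 fold change of 5.89. By edgeR with other scalings, filters or dispersions, or with a library left out, the adjusted p ran from 0.00611 (no filter) to 0.376 (without BPTMC replicate 3). oac-14 took 5.04% and 2.21% of all oac reads in DMSO, and 69.9%, 36.5% and 59.4% in BPTMC. Among the BPTMC libraries its order, replicate 1 then 3 then 2, was that of the major sperm protein sum, whose part in the level of oac-14 was not tested. The first principal component of all tested genes and the number of genes with a read had the same order. The major sperm protein sum was 98.1 and 42.3 CPM in DMSO replicates 1 and 2, and 448, 55.5 and 293 CPM in BPTMC replicates 1, 2 and 3.

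oac-6 (WBGene00007833) lies on chromosome V from 16302717 to 16306159, on the plus strand, and also overlaps no other annotated gene. Its level was 1.25 and 2.35 CPM with DMSO and 27.3, 10.6 and 28.4 CPM in BPTMC replicates 1, 2 and 3. The groups did not overlap, and the lowest BPTMC library was 4.52 times the higher DMSO library. With BPTMC replicates 1 and 3 nearly equal, the 3 libraries spanned a 2.67-fold range, less than for oac-14. The log2 fold change was 3.61 ± 0.63 (SE), with adjusted p = 0.125 by edgeR and 1.68e-06 by DESeq2. Over the same alternatives the log2 fold change of oac-6 was between 3.21 and 4.16, and its adjusted p by edgeR ran from 0.0300 (no filter) to 0.601 (without BPTMC replicate 3).

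oac-20 (WBGene00009488), on chromosome V from 15978714 to 15981779, had 1.34 and 3.06 CPM with DMSO and 35.4, 4.08 and 17.0 CPM in BPTMC replicates 1, 2 and 3. BPTMC replicate 2 stood only 1.34 times above DMSO replicate 2, and the BPTMC libraries spanned 8.67-fold. They had the same order as the major sperm protein sum and the first principal component. Of the DMSO libraries, replicate 2 was the higher for oac-20 but the lower for that sum and that component. The part of the sum or the component in the level of oac-20 was not tested. The log2 fold change was 3.10 ± 0.90 (SE), with adjusted p = 0.437 by edgeR and 0.0117 by DESeq2. It was 2.38 without BPTMC replicate 1 and 3.87 without DMSO replicate 2. The last 95 bases of oac-20 run tail to tail into fbxa-99 (WBGene00009490, V, 15981685 to 15982854), an F-box gene on the opposite strand. fbxa-99 had 10 and 19 reads in DMSO, and 228, 21 and 80 in BPTMC. These were 24.0% to 33.3% of the oac-20 reads in every library, and fbxa-99 had a log2 fold change of 3.01. 3' tags fall at the ends of transcripts and the strand setting of the counting is not given in the sources used here, so reads of the pair cannot be told apart.

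**Figure D3:**
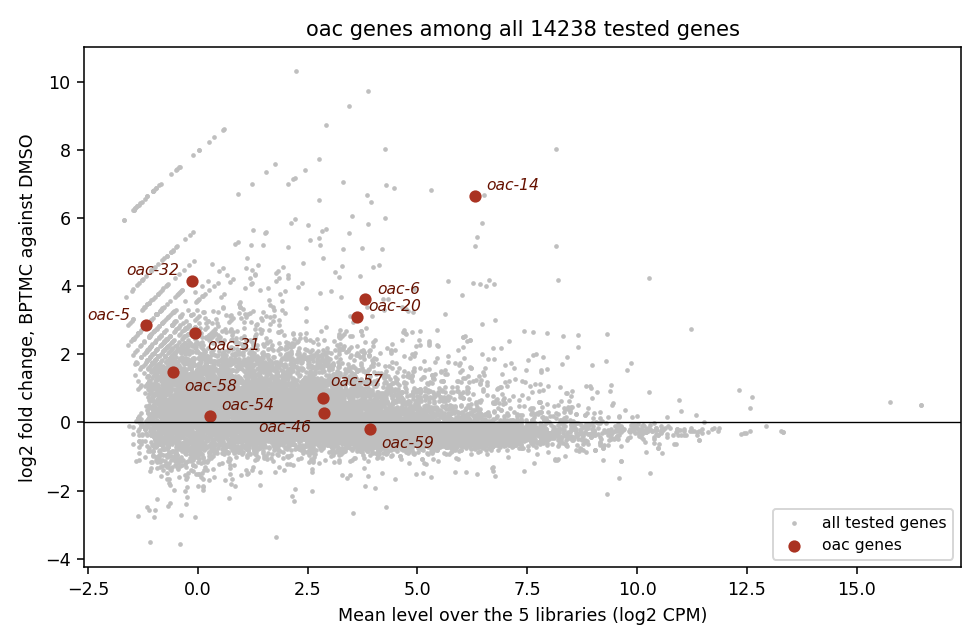
log2 fold change of BPTMC against DMSO (vertical axis) against the mean level in log2 CPM (horizontal axis), with all 14238 tested genes in grey and the 11 oac genes in red. oac-14 stands at a log2 fold change of 6.65 among few genes of its level, oac-6 and oac-20 at 3.61 and 3.10, and oac-59, oac-46, oac-54 and oac-57 between -0.18 and 0.72.

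oac-31 and oac-32 are neighbours on the minus strand of chromosome V (1538354 to 1541886 and 1542442 to 1545783) and both were low. oac-32 had 0 and 3 reads in DMSO and 47, 7 and 26 in BPTMC replicates 1, 2 and 3. In CPM the levels of oac-32 were 0 and 0.141 against 2.30, 0.357 and 1.32. The ratio of its pooled counts per depth was 19.5, with an exact 95% interval of 6.43 to 96.4 that covers counting error only. The fitted log2 fold change of oac-32 was 4.15 ± 1.31 (SE, edgeR adjusted p = 0.474), a value that depends on the fit's prior count with so few DMSO reads. It was 3.17 without DMSO replicate 1 and 7.81 without DMSO replicate 2, and without BPTMC replicate 1 or 3 the gene did not pass the filter. oac-31 had 6 and 3 reads in DMSO and 16, 12 and 50 in BPTMC, or 0.269 and 0.141 CPM against 0.782, 0.613 and 2.54 CPM. Its log2 fold change was 2.64 ± 0.96 (SE, edgeR adjusted p = 0.589), and 1.83 without BPTMC replicate 3. In both genes every BPTMC library stood above both DMSO libraries, as in 13.4% of all tested genes. Both genes passed the filter through the BPTMC libraries alone, which favours that order. Their highest BPTMC libraries differed, replicate 1 for oac-32 and replicate 3 for oac-31.

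oac-5 stands in a run with oac-6 and oac-7 on chromosome V, all on the plus strand, between 16292709 and 16314775. oac-5 had 1 and 2 reads in DMSO and 20, 10 and 2 in BPTMC replicates 1, 2 and 3. In CPM the levels of oac-5 were 0.0448 and 0.0940 against 0.978, 0.510 and 0.102. The ratio of pooled counts was 7.79, with an exact 95% interval of 2.44 to 39.8 that covers counting error only. The fitted log2 fold change of oac-5 was 2.85 ± 1.25 (SE, edgeR adjusted p = 0.671), again with 3 DMSO reads behind it. Leaving out DMSO replicate 2 gave 3.45 and leaving out BPTMC replicate 3 gave 3.43. With BPTMC replicate 1 or 2 left out, oac-5 did not pass the filter. Its DMSO replicate 2 and BPTMC replicate 3 had the same 2 reads, so the groups were kept apart only by the scaling for depth. oac-7, not tested, had 2 and 3 reads in DMSO and 11, 1 and 6 in BPTMC, and its groups overlapped. Over the 5 libraries, 35 reads of oac-5, 1402 of oac-6, which lies between the other two, and 23 of oac-7 were counted.

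The remaining tested members overlapped between the groups. oac-59 (chromosome IV, 12293233 to 12301261) had 13.9 and 18.5 CPM with DMSO and 9.58, 18.9 and 14.4 CPM in BPTMC replicates 1, 2 and 3. oac-59 thus had a log2 fold change of -0.18 ± 0.43 (SE, edgeR adjusted p = 0.879), the only one of the 11 below 0, and at 0.05 without DMSO replicate 2 or 0.13 without BPTMC replicate 1. The last 85 bases of oac-59 overlap the end of C42C1.8 on the opposite strand, which had 950 and 1576 reads in DMSO and 492, 1149 and 958 in BPTMC. The reads of oac-59 were 25.0% to 39.8% of these, lowest in BPTMC replicate 1 for both genes, so this pair too may share reads. oac-46 (chromosome II, 8848843 to 8852096) had the narrowest range among BPTMC libraries of the 11, 1.29-fold, with 7.03 and 5.88 CPM with DMSO and 8.36, 6.64 and 8.54 CPM in BPTMC, a log2 fold change of 0.28 ± 0.41 (SE, edgeR adjusted p = 0.842). It meets agxt-1 tail to tail over 63 bases on the opposite strand, and agxt-1 had 188 to 234 reads per library.

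oac-57 and oac-58 follow oac-59 on the same strand of chromosome IV (12304462 to 12307820 and 12308293 to 12311697). oac-57 had 134 and 89 reads in DMSO and 263, 182 and 61 in BPTMC, which in CPM put both DMSO libraries inside the BPTMC range of 3.10 to 12.9 (log2 fold change 0.72 ± 0.62, SE, edgeR adjusted p = 0.834). oac-58 had 5 and 7 reads in DMSO and 18, 5 and 24 in BPTMC (log2 fold change 1.49 ± 0.91, edgeR adjusted p = 0.799). oac-54 on chromosome II had 1.52 and 0.517 CPM with DMSO and 2.30, 0.255 and 0.966 CPM in BPTMC (log2 fold change 0.20 ± 0.89, edgeR adjusted p = 0.931). Its direction turned to -0.69 without BPTMC replicate 1 and to -0.31 without DMSO replicate 2, and limma-voom put it at -0.0775. BPTMC replicate 2 was the lowest BPTMC library in 8 of the 11 tested genes, the exceptions being oac-59, oac-57 and oac-5.

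Levels of different members were compared per kilobase of annotated exon. Counts of 3' tags need not grow with transcript length, so the division can itself change an order: oac-57 stood above oac-46 per kilobase and below it in undivided CPM. Per kilobase of annotated exon the mean over the 5 libraries was 35.4 CPM for oac-14, 6.77 for oac-59, 6.30 for oac-6, 5.33 for oac-20, 3.41 for oac-57 and 3.03 for oac-46. The 56 genes have 1569 to 2563 exonic bases, and all are annotated as protein-coding.

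**Figure D4:**
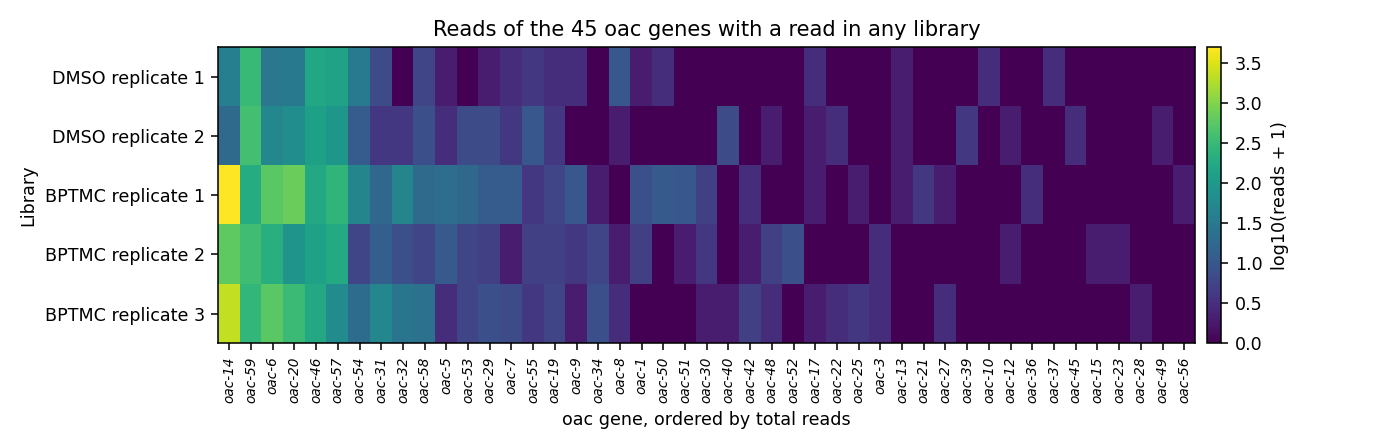
Reads of the 45 oac genes with a read, as log10(reads + 1) in colour (dark for 0, yellow for the most), with a row per library and genes ordered by total reads from the left. The BPTMC rows are brightest at oac-14, with 5017 reads in replicate 1, and from oac-53 (33 reads in all) to the right nearly every cell is at or close to 0 in both groups.

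The 45 members left out of the test held few reads. Among them 11 had no read, 15 had reads in both groups, 14 in BPTMC libraries only and 5 in DMSO libraries only. No single count of theirs was above 17, and together they had 29 and 46 reads in DMSO and 99, 52 and 55 in BPTMC replicates 1, 2 and 3, or 1.30 and 2.16 CPM against 4.84, 2.65 and 2.80 CPM. BPTMC had 3 libraries and DMSO 2, so a gene with few reads is more easily seen in BPTMC alone. Of the 14 seen in BPTMC only, 7 had 3 reads or fewer. The highest was oac-34, with 0 reads in both DMSO libraries and 1, 5 and 7 in BPTMC. Per depth, its 13 pooled BPTMC reads were 3.16 times 3 DMSO reads, taken as that group's upper limit. This value leaves out the counting error of the BPTMC reads and the spread among the libraries. oac-53, with 33 reads the most of any member left out, had 0 and 6 reads in DMSO and 17, 5 and 5 in BPTMC, and oac-5, with 35, the fewest of any tested. oac-8 ran the other way, with 9 and 1 reads in DMSO and 0, 1 and 2 in BPTMC. Its pooled counts had a ratio of 0.219, with an exact 95% interval of 0.0387 to 0.851 that covers counting error only. DMSO replicate 1 alone held 9 of the 10 DMSO reads, and the counts of 1 to 2 reads overlapped between groups. The last 29 bases of oac-8 overlap the end of C43F9.4 on the opposite strand, which had 13 and 4 reads in DMSO and 2, 1 and 1 in BPTMC. This pair too may share reads. oac-40 also had more reads in DMSO, 0 and 6 against 0, 0 and 1 in BPTMC.

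By position on WBcel235, chromosome I holds 15 oac genes, of which 10 had a read and 0 were tested, with at most 19 reads for any 1 gene. A run of 5 there (oac-16, oac-26, oac-27, oac-28 and oac-25, 12239160 to 12272190) had 8 reads in all, and oac-45, oac-44 and oac-43 (12353506 to 12363416) had 2. Chromosome IV holds 13 members with 3 tested, chromosome V holds 21 with 5 tested, chromosome II holds 6 with 2 tested, and the X chromosome holds oac-14 alone. With starts within 20 kb of each other counted as a run, 29 of the 56 genes lay in 11 runs. In 8 of the runs no gene was tested, and the 7 tested genes in runs were in the other 3: oac-57, oac-58 and oac-59, oac-31 and oac-32, and oac-5 with oac-6. Among rows with a mean of at least 20 reads per library, no oac gene had a near-identical row beside it, within 5% in every library and within 10 rows. Most members, among them oac-31, oac-32, oac-58 and oac-5, had fewer reads and could not be compared in this way.

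The relatives with this domain outside the oac names were rhy-1, nrf-6, ndg-4 and bus-1. Of these 3 were tested and 0 passed edgeR, DESeq2 or limma-voom over all genes, with 0 at an unadjusted p under 0.05, and bus-1 was close to 0. rhy-1, the HIF-1 regulator, had 7.84 and 8.13 CPM with DMSO and 5.82, 8.07 and 4.42 CPM in BPTMC (log2 fold change -0.39 ± 0.44, edgeR adjusted p = 0.834). nrf-6 stood at 22.4 to 35.4 CPM with DMSO and 29.4 to 63.8 CPM with BPTMC (log2 fold change 0.52 ± 0.48), and ndg-4 had a log2 fold change of 0.06 ± 0.48. In all 3 the groups overlapped. nrf-5, a lipid-binding protein that acts with nrf-6 and ndg-4, had 5.33 and 4.14 CPM with DMSO and 18.9, 6.43 and 12.2 CPM in BPTMC (log2 fold change 1.40 ± 0.55, edgeR adjusted p = 0.620). Its groups did not overlap, and 13.4% of all tested genes likewise had every BPTMC library above both DMSO libraries.

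Of 11 genes of the HIF-1 pathway tested, edgeR, DESeq2 and limma-voom called 0, with 0 at an unadjusted p under 0.05 and a median log2 fold change of 0.26. The smallest p belonged to cdo-1, the cysteine dioxygenase gene, with 4.76 ± 0.745 CPM (SD, n = 2) in DMSO and 8.57 ± 1.68 CPM (SD, n = 3) in BPTMC (log2 fold change 0.85 ± 0.44, edgeR adjusted p = 0.733). It was followed by nhr-57, a nuclear receptor gene used as a reporter of HIF-1, with a log2 fold change of 1.45 ± 0.97. Among other acyltransferases, 0 of 6 mboa genes (membrane-bound O-acyltransferases) and 0 of 13 acl genes (enzymes of phospholipid synthesis) passed any of the 3 tools. Their medians were 0.04 and -0.23. With an unadjusted edgeR p under 0.05 the mboa list had 0 members and the acl list had 2, both higher (7% of all tested genes), acl-12 (log2 fold change 1.28 ± 0.48) and acl-7 (1.12 ± 0.43), both with edgeR adjusted p-values of at least 0.604. The mboa genes of smallest p, mboa-2 and mboa-3, had log2 fold changes of -0.38 ± 0.44 and 0.28 ± 0.44.

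**Figure D5:**
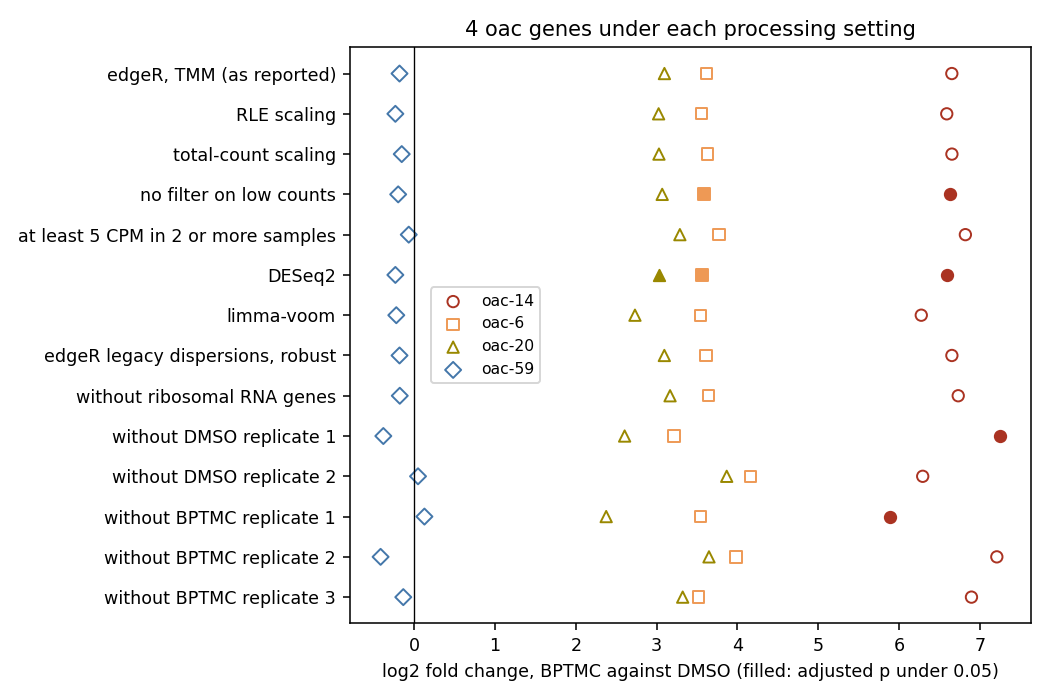
log2 fold change of BPTMC against DMSO (horizontal axis) for oac-14, oac-6, oac-20 and oac-59 under the reported edgeR fit (top) and 13 alternatives (all but the replicate block), with filled symbols for an adjusted p under 0.05. oac-14 lies between 5.89 and 7.25 in all of them and passes in 4 of the 13, oac-6 in 2, oac-20 in 1 and oac-59, between -0.42 and 0.13, in none.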

How the data were processed

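The authors deposited 1 table per sample with raw read counts per gene symbol, for which the submitters' processing notes name Bowtie2, bedtools and the build WBcel235. The sources used here give no tool version, annotation or strand setting. Libraries were made from 500 ng of total RNA with a Lexogen QuantSeq 3' kit, per the labels' protocols. The counts were used unscaled in edgeR 4.0.16 (R 4.3.3): TMM, filterByExpr with a minimum count of 10, the quasi-likelihood test with non-legacy dispersions, all 5 libraries, and Benjamini-Hochberg adjustment over 14238 genes. SE is the absolute log2 fold change over the square root of F. DESeq2 1.42.0, limma-voom (limma 3.58.1), other scalings and filters and libraries left out were alternatives. Positions are from the Ensembl 115 annotation of WBcel235, which matched all 56 symbols. The members and lists were chosen with earlier results of these data known. Full values were given for the 6 tested oac genes of highest and the 4 of lowest log2 fold change and the 6 of highest mean CPM, and for each list the 2 smallest p-values. oac-58, oac-7, oac-34, oac-53, oac-8 and oac-40, and overlapping genes, were named after their values were seen. The grouping of oac-14, oac-6 and oac-20 for the family's shares and sums was likewise not fixed beforehand. Each pair of libraries differed beyond counting error.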

Additional observations from a re-analysis of the deposited data

How the results depend on the processing

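The count of oac genes called higher, 0 in the reported edgeR fit, was 2 with no filter on low counts (oac-14 and oac-6), 3 by DESeq2 (with oac-20) and 5 with the replicate number as a block (with oac-32 and oac-5). It ran from 0 to 1 when a library was left out. It was 0 in the other alternatives, and none of them called an oac gene lower. Over all tested genes, 15 called higher became 2 with total-count scaling, 3 with a filter of 5 CPM in 2 or more samples, 1 by limma-voom, 3 with legacy dispersions, 4 without ribosomal RNA genes, 2 at an adjusted p under 0.01 and 0 to 43 with a library left out. It became 65 (and 2 lower) with no filter, 238 (and 3 lower) by DESeq2 and 1147 (and 599 lower) with the block. The titles share replicate numbers 1 and 2 between groups but do not say that a number marks a shared culture or day. Deviations from the group means correlated across genes at 0.67 for number 1 and 0.33 for number 2. With 2 DMSO libraries, their deviations from the group mean are mirror images of each other. Both correlations thus reuse the same DMSO difference, are not independent and do not settle a pairing. The median log2 fold change of the tested oac genes, 2.64, was 1.86 with no filter, 1.75 with the block and 1.36 to 2.58 with a library left out, where the set of tested members also changes. oac-54 changed sign by limma-voom (-0.0775) and spanned -0.69 to 1.16 with a library left out, and oac-59 spanned -0.42 to 0.13. The causes were not tested. With 1 DMSO library left, that library is assumed to vary like the others. The planned promoter motif shares and protein alignments were not run. Depth limits the 45 members left out of the test, none above 0.831 CPM in any library.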
